A study of Arabidopsis thaliana with 16 samples.

Results

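The 105 genes described here had a lower level in seu-6 than in Col-0 seedlings of Arabidopsis thaliana in each of 4 media. Levels are given in CPM, the count of a gene divided by the sum of all gene counts of its library and scaled to a total of 1000000. A gene was taken when log2 of the seu-6 group mean over the Col-0 group mean, each with 1 CPM added, was -0.58 or lower in every medium, which is a ratio of at least 1.49 between Col-0 and seu-6. Of 32833 genes counted 110 met this, and 5 of them were set aside by name among 8 genes left out, which include SEUSS (SEU, AT1G43850) itself. The genotype difference therefore chose the genes, and its values are given as a description with no test. All 105 passed the filter on low counts in both experiments, among 21201 genes that did. The rule makes this nearly certain through the Col-0 levels it asks for, while levels in seu-6 can be near 0. The reference annotation has 104 of them as protein coding and 1, AT5G02515, as a long non-coding RNA.

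The samples were whole seedlings of seu-6, a mutant of SEU, and of the wild type Col-0. In one experiment 14-day seedlings were put into liquid 1/2 MS medium with 300 mM NaCl or with no addition (mock) for 15 min, and in the other 10-day seedlings were put into the liquid medium with 250 mM sorbitol or with no addition (mock) for 6 h. All plants had grown under 16 h of light and 8 h of dark, and each of the 8 groups of genotype and medium has 2 biological replicates, 16 libraries in all. Age, time and experiment are confounded between the 2 experiments, and the mutant is represented by 1 allele.

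SEU encodes a transcriptional co-regulator without a DNA-binding domain that is known to act with LEUNIG-type corepressors and with DNA-binding factors in flower, ovule and leaf development. It is also known as a partner of auxin response factors and of factors of the shade and light pathways. Sodium chloride and sorbitol both lower the water potential of the medium, sodium chloride with added ions, and plants answer with closure of stomata, abscisic acid signalling, slower growth and synthesis of compatible solutes.

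The libraries held 39756463 to 42676953 gene counts, and the 2 replicates of each group had an r of 0.998 or 0.999 across genes on the log2(CPM + 1) scale. SEU had 0.409 to 1.07 CPM in the seu-6 libraries and 38.6 to 59.0 CPM in the Col-0 libraries. Both seu-6 libraries of the 6 h mock stand apart by 9 seed storage genes, which summed to 189 CPM in each of them and to between 0.338 and 2.04 CPM in the other 14 libraries. Without the 6 h mock as a condition, 165 genes met the threshold in the other 3 media, and they include the 105 by construction. Of the marker lists, xylem markers summed to 129 to 156 CPM in seu-6 and 170 to 211 CPM in Col-0 over all media, and 4 of 5 were lower in seu-6 in every medium by group means, as were 20.9% of the 21201 genes passing the filter. The 2 phloem markers were lower in seu-6 in every medium. Root hair markers summed to 19.4 to 25.4 CPM in seu-6 and 45.1 to 45.4 CPM in Col-0 under NaCl. In the mock of that experiment they summed to 53.0 to 53.7 CPM in seu-6 and 73.7 to 81.4 CPM in Col-0. Under sorbitol they summed to 37.9 to 40.5 CPM in seu-6 and 29.8 to 34.6 CPM in Col-0. The genotypes overlapped in the 6 h mock, with 50.8 to 58.6 CPM in seu-6 and 51.1 to 54.0 CPM in Col-0. Root endodermis markers summed to less in seu-6 under NaCl and in both mocks. Under sorbitol their sums were 116 to 117 CPM in seu-6 and 101 to 110 CPM in Col-0. Whether counting used the strand is not given in the sources used here, and 20 of the 105 genes, CDEF1, APD7, NPF6.2, CLC-B, SMXL8, GRF9, IQD22 and ATL5 among them, overlap a locus on the opposite strand, whose reads cannot be told apart without it. The shoot apex markers WUS and CLV3 had no counts in 12 and 8 of the 16 libraries. The part of tissue proportions in the values below was not tested, and in whole seedlings fewer cells of a type and less RNA per cell cannot be told apart.

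The gap between the genotypes was widest, by its median over the 105 genes, in the 6 h mock. The median log2 value was -0.96 under NaCl, -0.85 in the 15 min mock, -0.93 under sorbitol and -1.05 in the 6 h mock. The gap was widest in the 6 h mock for 46 genes, under sorbitol for 25, under NaCl for 23 and in the 15 min mock for 11. Under NaCl it was wider than in the matching mock for 74 of 105 genes, and under sorbitol for 41 of 105. These counts rest on the values that chose the genes, and the shares over all genes were not computed. Over all genes counted, the 6 h mock had the fewest past the threshold, 636. The number was 802 under sorbitol, 961 in the 15 min mock and 1211 under NaCl. By the mean over the media 51 of the 105 genes were at -1 or lower and 2 at -2 or lower. In all 4 media both seu-6 libraries were below both Col-0 libraries for each of the 105 genes, which was so for 7.83% of the 21201 genes passing the filter, and the rule makes this nearly certain. Just inside the threshold were GH9B13 with -0.585 and the Dof factor gene AT5G02460 with -0.586, both under sorbitol, and BR6OX2 with -0.586 in the 15 min mock. Just outside it were TRM13 with -0.578, AT3G21670 with -0.577 and AT2G28790 with -0.575. In the other direction 77 genes were higher in seu-6 by the same size in all 4 media.

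**Figure D1:**
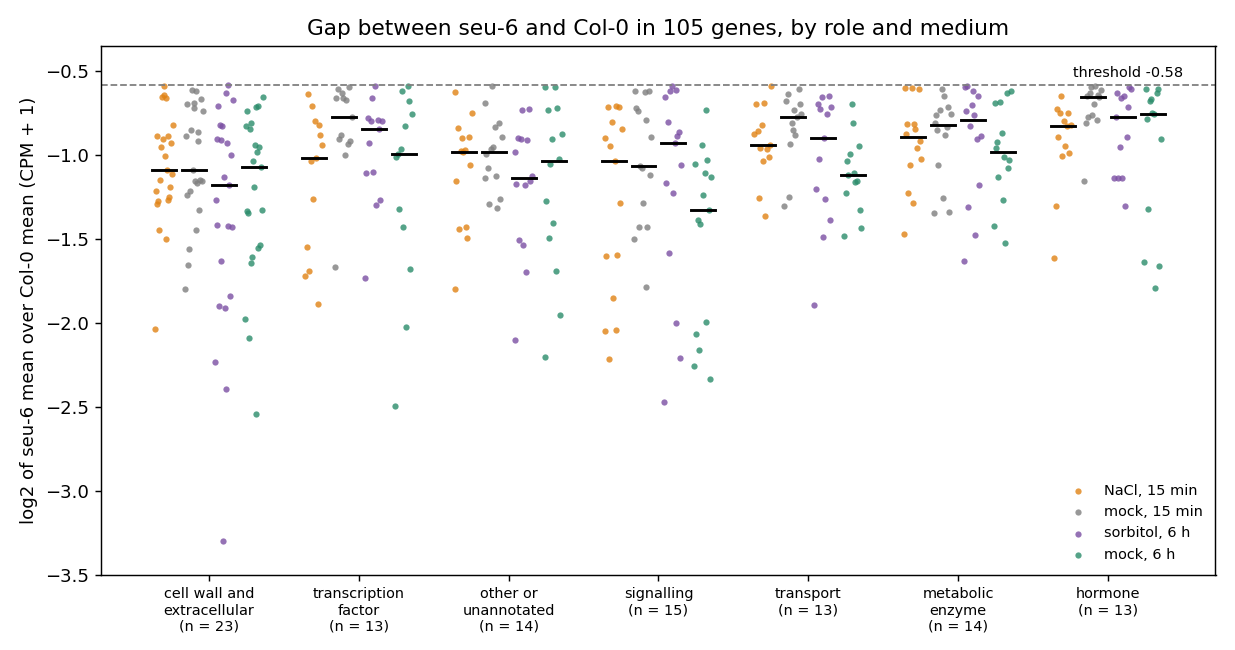
Log2 of the seu-6 mean over the Col-0 mean (CPM + 1, 2 libraries each) on the vertical axis for the 105 genes, grouped by role, with 1 point per gene and medium and a black bar at the median of each medium. The dashed line is the threshold of -0.58 that chose the genes, and the lowest point is CWINV5 under sorbitol at -3.30.

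By role the genes divide into 23 for cell wall and extracellular proteins, 15 for signalling, 14 for metabolic enzymes, 13 for transcription factors, 13 for hormone metabolism and signalling, 13 for transport and 14 with another or no annotated function, a sorting made after their values were seen. The median of the mean gap was lowest in the cell wall and extracellular group at -1.18 and highest in the hormone group at -0.78. No product family of the reference annotation held 4 or more of the genes. They lay on all 5 chromosomes, with 22, 21, 16, 20 and 26 on chromosomes 1 to 5. None lay within 50 gene positions of SEU, a window with 26 genes that passed the filter. SMXL4 and AT4G29930 are next to each other on chromosome 4 and point away from each other, and AT3G16660 and AT3G16670, annotated with the same product, have 2 loci between them.

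The 5 lowest mean gaps belonged to BRG2 and BRG3, the cutinase-like gene CDEF1, the extensin-family gene AT3G16670 and the growth-regulating factor gene GRF5. BRG2 and BRG3 encode RING proteins related to BOTRYTIS SUSCEPTIBLE1 INTERACTOR (BOI), which are known to restrain cell death and gibberellin responses. BRG2 (AT1G79110) had 2.14 and 0.924 CPM in seu-6 against 10.7 and 8.26 CPM in Col-0 under NaCl, and 1.28 and 1.39 CPM in seu-6 against 4.91 and 6.3 CPM in Col-0 in the 15 min mock. In the other experiment it had 2.11 and 2.0 CPM in seu-6 against 16.4 and 15.5 CPM in Col-0 under sorbitol, and 2.86 and 1.92 CPM in seu-6 against 15.7 and 14.7 CPM in Col-0 in the 6 h mock. The Col-0 libraries are high in all media and highest in the 6 h experiment, and the seu-6 libraries stay at or under 2.86 CPM. The log2 values were -2.05 under NaCl, -1.50 in its mock, -2.47 under sorbitol and -2.26 in its mock. BRG3 (AT3G12920) had 5.57 and 3.89 CPM in seu-6 against 24 and 21.2 CPM in Col-0 under NaCl, and 5.46 and 5.27 CPM in seu-6 against 20.8 and 21.1 CPM in Col-0 in the 15 min mock. At 6 h it had 8.15 and 7.92 CPM in seu-6 against 34.6 and 35.9 CPM in Col-0 under sorbitol, and 8.29 and 8.21 CPM in seu-6 against 37.6 and 34 CPM in Col-0 in the 6 h mock. Its gap varied less between media than that of BRG2, with -2.04 under NaCl, -1.79 in its mock, -2.0 under sorbitol and -1.99 in its mock. BOI itself (AT4G19700) had a mean gap of -1.23, and BRG1, the 1 gene of these 4 outside the set, was lower in seu-6 in every medium but by -0.42 under sorbitol, short of the threshold.

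CDEF1 (AT4G30140) encodes a cutinase-like GDSL enzyme. It had 13.2 and 18.4 CPM in seu-6 against 63.4 and 72.3 CPM in Col-0 under NaCl, and 17.6 and 12.6 CPM in seu-6 against 43.7 and 65.9 CPM in Col-0 in the 15 min mock. Its values at 6 h were 24.2 and 25.1 CPM in seu-6 against 123 and 117 CPM in Col-0 under sorbitol, and 27.6 and 28.4 CPM in seu-6 against 112 and 114 CPM in Col-0 in the 6 h mock. The 2 libraries of a group differed by a larger ratio in the 15 min experiment than in the 6 h experiment, and the genotypes do not overlap in any medium. AT3G16670, for a protein of the pollen Ole e 1 and extensin family, had 42.5 and 31.7 CPM in seu-6 against 105 and 109 CPM in Col-0 under NaCl. Under sorbitol it had 20.7 and 21.5 CPM in seu-6 against 108 and 122 CPM in Col-0. Its gap was -2.40 under sorbitol and -2.54 in the 6 h mock, wider than the -1.50 under NaCl and -1.45 in the 15 min mock.

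GRF5 (AT3G13960), a growth-regulating factor that promotes cell proliferation in leaves, had 1.42 and 1.14 CPM in seu-6 against 6.28 and 6.76 CPM in Col-0 under NaCl, and 0.926 and 0.447 CPM in seu-6 against 4.55 and 4.17 CPM in Col-0 in the 15 min mock. The 6 h experiment gave 1.74 and 1.42 CPM in seu-6 against 8.08 and 7.08 CPM in Col-0 under sorbitol, and 1.72 and 1.75 CPM in seu-6 against 15.8 and 13.1 CPM in Col-0 in the 6 h mock. The seu-6 libraries stay under 2 CPM, and the Col-0 libraries are highest in the 6 h mock, where the gap was -2.50. AT5G12050, placed in the signalling group, had 6.27 and 5.77 CPM in seu-6 against 32.2 and 31 CPM in Col-0 under NaCl and 4.15 and 3.63 CPM in seu-6 against 12.1 and 12.3 CPM in Col-0 in the 15 min mock. MAKR6 (AT5G52900), for a membrane-associated kinase regulator, had 4.9 and 4.69 CPM in seu-6 against 26.4 and 25.2 CPM in Col-0 under sorbitol and 5.85 and 6.3 CPM in seu-6 against 37.2 and 32.2 CPM in Col-0 in the 6 h mock. The gap of MAKR6 was -2.34 in the 6 h mock and -1.12 in the 15 min mock, one of the widest ranges between media. The other genes among the 12 with the lowest mean gap and a mean of at least 4 CPM are AT5G62280 of unknown function (-1.81), the pectin lyase-like AT1G10640 (-1.75), the tetratricopeptide repeat gene AT1G80130 (-1.48), the dehydrogenase-like AT5G50130 (-1.47) and the subtilisin-like AT2G39850 (-1.43).

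**Figure D2:**
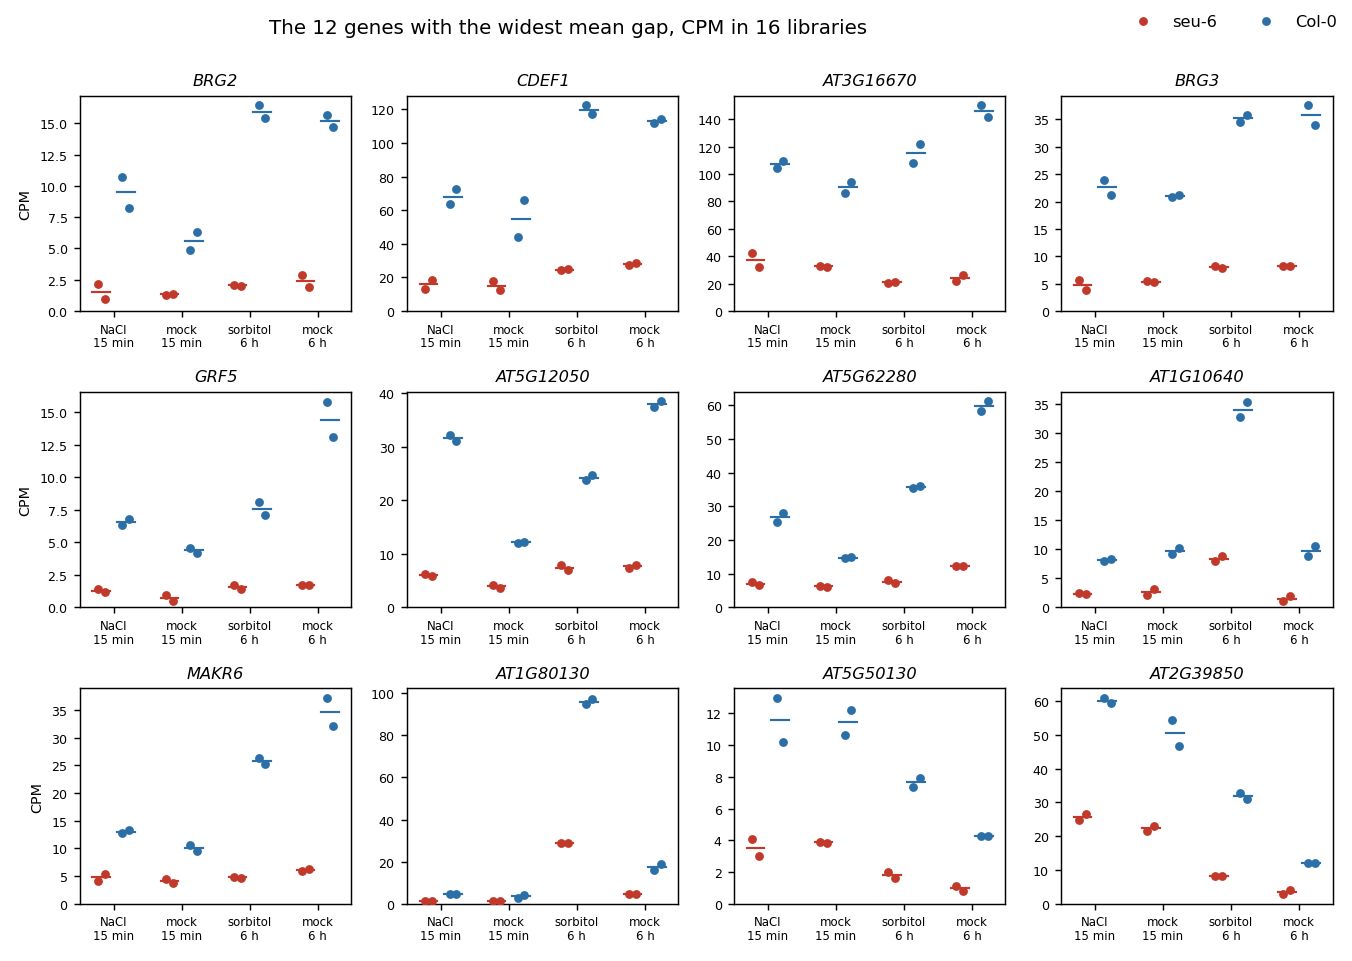
CPM on the vertical axis in each of the 16 libraries for the 12 genes with the widest mean gap and a mean of at least 4 CPM, with seu-6 in red left of Col-0 in blue in every medium. Points are libraries and lines are means of 2, and in every panel the seu-6 points lie below the Col-0 points of the same medium.

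Promoter windows of the genes were searched for 12 short motifs, each on both strands. A window runs from 250 bases before the annotated start of the gene to 50 bases from the start on, 300 bases in all, and was read from the TAIR10.1 genome with its RefSeq annotation. Windows of 104 protein-coding genes were set beside those of 20619 protein-coding genes passing the filter. The PBE-box, CACATG, was in 22 of 104 windows or 21.2%, against 13% of all. The related G-box, CACGTG, went the other way, as given below. The AuxRE, TGTCTC, a sequence bound by auxin response factors, was likewise in 22 windows or 21.2%, against 13.8% of all. Both were in 6 windows and either in 38. The evening element, AAAATATCT, was in 5.77% of windows against 2.98% of all.

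Other motifs were near or under the share of all windows. The G-box, CACGTG, was in 4.81% against 8.75%, the ABRE, ACGTGGC, in 1.92% against 4.68%, and the DRE, GCCGAC, in 2.88% against 3.64%. The GCC-box, GCCGCC, was in none of the windows against 2.55%. The W-box, TTGACC, was in 14.4% against 14.5%, the MYB core AACAAAC in 12.5% against 12.9%, P1BS, GNATATNC, in 5.77% against 6.23%, the CArG-box in 1.92% against 3.15% and the TATA-box, TATAAA, in 55.8% against 51.9%. A G-box followed by GC also holds the ABRE, so these motifs can overlap. The shares were not tested, and the median GC content was 30.7% in the windows of the set and 31.7% in all.

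**Figure D3:**
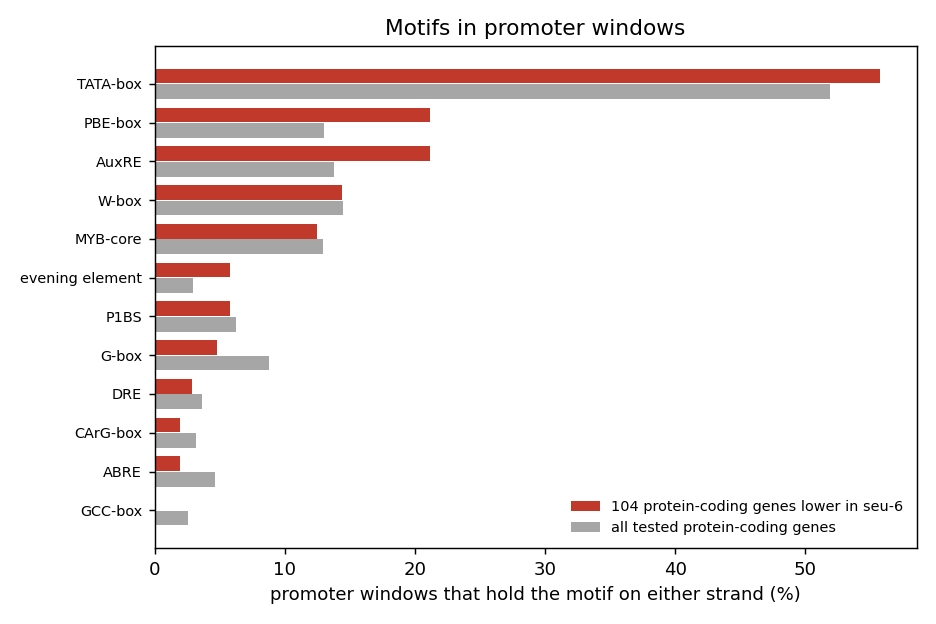
Share of promoter windows that hold each motif on either strand, in percent on the horizontal axis, for the 104 protein-coding genes in red above all tested protein-coding genes in grey. The PBE-box and the AuxRE are each in 21.2% of the windows of the set, against 13% and 13.8% of all.

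The following windows are shown because they belong to genes with wide gaps and hold one or both of these motifs. The windows of BRG2, CDEF1, AT3G16670 and BRG3, whose mean gaps were the lowest of the set, hold neither motif. Those of AT5G62280, AT5G50130, AT2G39850 and AT5G22580 hold an AuxRE, that of IQD22 a PBE-box and that of ACS8 both. They are not shown, although the mean gaps of these genes were lower than the -1.25 of bHLH071. Whether the motifs go with wider gaps was not tested. Capitals mark the PBE-box (CACATG, or CATGTG when read on the other strand) and the AuxRE (TGTCTC, or GAGACA on the other strand). In GRF5 the AuxRE begins 245 bases before the start, and in AT5G12050 it begins 231 bases before it. The window of AT1G80130 has an AuxRE 229 bases and another 182 bases before the start and a PBE-box 76 bases before it. In bHLH071 (AT5G46690), for a bHLH factor of the stomatal lineage, an AuxRE 131 bases before the start and a PBE-box 126 bases before it share a base. The windows are chr3:4607826-4608125 on the plus strand for GRF5, chr5:3889656-3889955 on the plus strand for AT5G12050, chr1:30142648-30142947 on the minus strand for AT1G80130 and chr5:18945293-18945592 on the plus strand for bHLH071, each given in the direction of the gene.
GRF5: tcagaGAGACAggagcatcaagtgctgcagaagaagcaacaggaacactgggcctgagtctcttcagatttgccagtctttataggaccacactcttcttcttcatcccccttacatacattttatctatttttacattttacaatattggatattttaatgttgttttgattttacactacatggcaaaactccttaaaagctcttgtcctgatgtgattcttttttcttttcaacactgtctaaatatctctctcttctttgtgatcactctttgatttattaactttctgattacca
AT5G12050: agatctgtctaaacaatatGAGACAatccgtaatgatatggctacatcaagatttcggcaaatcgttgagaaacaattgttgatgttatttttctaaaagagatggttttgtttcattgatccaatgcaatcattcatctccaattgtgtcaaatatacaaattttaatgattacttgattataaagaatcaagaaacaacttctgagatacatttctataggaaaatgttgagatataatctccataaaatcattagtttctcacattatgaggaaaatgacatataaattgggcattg
AT1G80130: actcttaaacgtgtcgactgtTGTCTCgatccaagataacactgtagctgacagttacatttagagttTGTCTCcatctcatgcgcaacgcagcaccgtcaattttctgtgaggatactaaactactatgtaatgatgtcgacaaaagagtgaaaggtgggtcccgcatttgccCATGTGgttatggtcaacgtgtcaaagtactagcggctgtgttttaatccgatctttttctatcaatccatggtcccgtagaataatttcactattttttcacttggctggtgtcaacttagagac
bHLH071: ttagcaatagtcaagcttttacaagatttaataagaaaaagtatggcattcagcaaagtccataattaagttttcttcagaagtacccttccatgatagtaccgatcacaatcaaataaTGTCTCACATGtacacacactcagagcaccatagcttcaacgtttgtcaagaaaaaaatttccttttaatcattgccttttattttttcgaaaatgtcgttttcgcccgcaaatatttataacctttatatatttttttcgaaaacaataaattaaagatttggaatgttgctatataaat

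The mean response of both genotypes to a treatment was not used to choose the genes and was tested across all genes by quasi-likelihood in edgeR. A gene was called higher or lower when its Benjamini-Hochberg adjusted p was under 0.05. Values are log2 fold changes of treatment over mock, averaged over seu-6 and Col-0, ± their standard errors from the fit over 8 libraries. Under sorbitol for 6 h 53 of the 105 genes (50.5%) rose and 28 (26.7%) fell, beside 34.5% called higher and 34.9% called lower of all 21633 genes tested. Their median was 0.23, against -0.01 over all genes. Under NaCl for 15 min 25 (23.8%) rose and 25 (23.8%) fell, beside 20.1% and 22.9% of all 22066 genes tested, so the shares under NaCl are near those of all genes. The median there was 0.07, against 0.01 over all genes.

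Of the 25 genes that fell under NaCl 16 (64%) rose under sorbitol, which are 16 of the 53 that rose there, and 6 (24%) fell in both. Of all 4978 genes that fell under NaCl and were tested in both experiments, 44.8% rose and 32.7% fell under sorbitol. Of the 25 that rose under NaCl 10 (40%) rose under sorbitol as well and 8 (32%) fell, near the 37.3% and 36.4% of all 3966 such genes. Most called genes moved the same way in both genotypes by their group means, 52 of 53 that rose and 28 of 28 that fell under sorbitol, and 24 of 25 that rose and 21 of 25 that fell under NaCl. The 53 genes that rose under sorbitol had a median log2 response of 0.75 in seu-6 and 0.75 in Col-0. For the 28 that fell it was -0.44 in seu-6 and -0.74 in Col-0, a difference that was not tested, since the rule used the same contrasts. Between the mocks 45 genes were higher and 41 lower at 6 h in 10-day seedlings than at 15 min in 14-day seedlings, beside 36.8% and 33.4% of all 22582 genes tested.

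**Figure D4:**
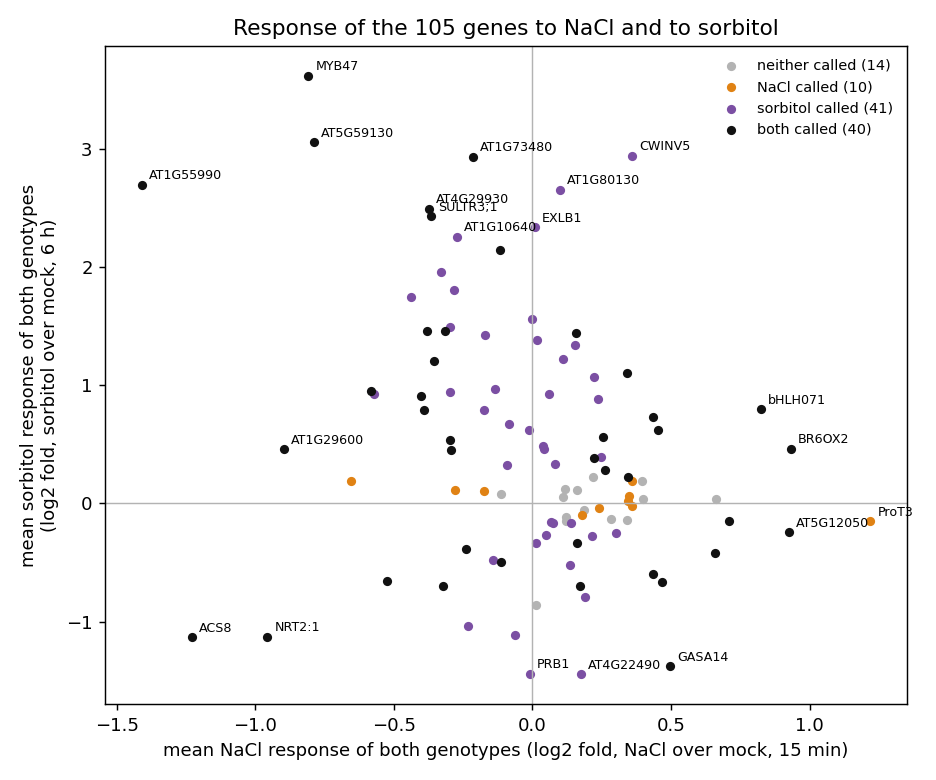
Mean NaCl response on the horizontal axis and mean sorbitol response on the vertical axis, both as log2 fold change over mock averaged over seu-6 and Col-0, with 1 point for each of the 105 genes. Colours show which response was called by edgeR, and the upper left part holds AT1G55990 with -1.41 under NaCl and 2.70 under sorbitol.

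Among the 13 transcription factor genes 8 rose and 2 fell under sorbitol, and 3 rose and 4 fell under NaCl. The counts by role, here and below, stand beside 34.5% higher and 34.9% lower of all genes tested under sorbitol. Under NaCl they stand beside 20.1% higher and 22.9% lower. The roles are small groups, and differences between them were not tested. MYB47 (AT1G18710), a MYB factor gene, had 5.31 and 6.19 CPM in seu-6 against 12.9 and 14.2 CPM in Col-0 under sorbitol. In the 6 h mock it had 0.348 and 0.344 CPM in seu-6 against 2.49 and 0.934 CPM in Col-0. All 4 sorbitol libraries are above all 4 mock libraries, and the response was 3.62 ± 0.21 (edgeR adjusted p = 5.8e-12), the highest of the 105 genes. The bHLH gene AT4G29930 had 17.6 and 18.9 CPM in seu-6 against 30.4 and 34.1 CPM in Col-0 under sorbitol and 3.28 and 3.96 CPM in seu-6 against 5.8 and 6.12 CPM in Col-0 in the 6 h mock, a rise of 2.49 ± 0.079 (edgeR adjusted p = 7.1e-37). Its gap ran between -1.89 under NaCl and -0.59 in the 6 h mock. ARF11 (AT2G46530), an auxin response factor, fell by 0.36 under NaCl (edgeR adjusted p = 0.0011, and 0.087 without replicate 1 of the seu-6 mock) and rose by 1.2 under sorbitol (edgeR adjusted p = 8.1e-18).

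The gene bHLH071, whose protein is known to bind FAMA in the guard cell lineage, rose in both treatments. It had 3.38 and 5.04 CPM in seu-6 against 9.38 and 9.73 CPM in Col-0 under NaCl and 2.68 and 2.34 CPM in seu-6 against 4.14 and 5.04 CPM in Col-0 in the 15 min mock, with a response of 0.83 ± 0.14 (edgeR adjusted p = 3.5e-07). Under sorbitol it had 4.53 and 5.01 CPM in seu-6 against 13.3 and 13.1 CPM in Col-0 and in the 6 h mock 1.84 and 2.34 CPM in seu-6 against 11.9 and 11.3 CPM in Col-0, with a response of 0.80 ± 0.10 (edgeR adjusted p = 8.0e-10). The stomatal lineage and guard cell markers summed to 103 to 105 CPM in seu-6 and 103 to 106 CPM in Col-0 under sorbitol, and to 113 to 117 CPM in seu-6 and 125 to 126 CPM in Col-0 in the 6 h mock. Under NaCl the sums were 70.0 to 70.1 CPM in seu-6 and 71.0 to 75.6 CPM in Col-0. In the 15 min mock they were 49.5 to 50.9 CPM in seu-6 and 50.5 to 51.1 CPM in Col-0. Of these 7 markers 3 were lower and 2 higher in seu-6 in all 4 media, beside 20.9% and 14.7% of all genes. GRF5 rose under NaCl by 0.66 ± 0.19 (edgeR adjusted p = 0.0035), a call lost without replicate 2 of the seu-6 mock (adjusted p = 0.072), and under sorbitol it fell by 0.42 (edgeR adjusted p = 0.0025).

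Of the 9 growth-regulating factor genes only GRF5 and GRF9 met the threshold in every medium. By group means 5 of the 9 were lower in seu-6 in all 4 media, beside 20.9% of all genes passing the filter. The 5 include GRF5 and GRF9, for which the rule made this certain. GRF9 (AT2G45480) had 1.16 and 1.08 CPM in seu-6 against 4.42 and 3.78 CPM in Col-0 under sorbitol and 0.547 and 1.08 CPM in seu-6 against 5.01 and 4.6 CPM in Col-0 in the 6 h mock. These levels are low, and neither response of GRF9 was called. HAT3 (AT3G60390), a homeodomain-leucine zipper factor of leaf polarity and shade responses, had 7.26 and 5.16 CPM in seu-6 against 16.5 and 16 CPM in Col-0 under NaCl and 5.98 and 6.49 CPM in seu-6 against 10.7 and 10.2 CPM in Col-0 in the 15 min mock. All 5 genes of the HAT3 clade examined were lower in seu-6 in all 4 media, beside the same 20.9%. For HAT3 itself the rule made this certain. The highest value of the 4 others was between -0.13 for HAT2 and -0.25 for HAT1, short of the threshold. These families were picked after the values were seen.

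Several of the genes are known from the vascular tissue. WOX4 (AT1G46480), a factor of the cambium, had 3.83 and 3.89 CPM in seu-6 against 8.16 and 5.73 CPM in Col-0 under NaCl and 4.6 and 4.75 CPM in seu-6 against 7.86 and 7.71 CPM in Col-0 in the 15 min mock. In the sorbitol experiment the values were 3.45 and 3.27 CPM in seu-6 against 5.5 and 6.29 CPM in Col-0 under sorbitol, and 2.26 and 2.75 CPM in seu-6 against 4.43 and 4.33 CPM in Col-0 in the 6 h mock. Its gap was nearly the same in all media, with -0.71 under NaCl, -0.63 in its mock, -0.66 under sorbitol and -0.62 in its mock. TMO5-LIKE1 (AT1G68810), a bHLH factor of vascular cell divisions, had a mean gap of -0.82, and PXC3 (AT2G41820), for a receptor-like kinase related to those of the vascular cambium, one of -0.85. Of the SMAX1-like genes SMXL4 and SMXL5, which act in phloem formation, and SMXL8, a target of strigolactone signalling, met the threshold. In that family 4 of 8 were lower in seu-6 in every medium, beside 20.9% of all genes. The rule made this certain for the 3 that are in the set, and of the others only SMXL3 was lower in every medium. SMXL5 (AT5G57130) had 20.7 and 17.7 CPM in seu-6 against 33.3 and 31.3 CPM in Col-0 under NaCl and 12.1 and 10.6 CPM in seu-6 against 17.2 and 19.5 CPM in Col-0 in the 15 min mock. Both genotypes were higher under NaCl, and the response was 0.71 ± 0.068 (edgeR adjusted p = 1.6e-15), against 0.36 ± 0.11 (edgeR adjusted p = 0.0064) for SMXL4 and 0.34 ± 0.10 (edgeR adjusted p = 0.0031) for SMXL8. The call for SMXL4 was lost without NaCl replicate 2 of seu-6 (edgeR adjusted p = 0.068). The xylem and the phloem markers above each summed to less in seu-6 than in Col-0 in every medium. By group means the xylem marker VND7 was slightly higher in seu-6 in the 15 min mock, at 0.02. None of those 7 markers met the threshold in every medium.

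Among the 13 hormone genes 6 rose and 4 fell under NaCl, and 5 rose and 4 fell under sorbitol. YUC8 (AT4G28720), for a flavin monooxygenase of auxin synthesis, had 1.14 and 1.41 CPM in seu-6 against 3.23 and 3.81 CPM in Col-0 under NaCl and 1.97 and 2.73 CPM in seu-6 against 4.31 and 4.24 CPM in Col-0 in the 15 min mock, a fall by 0.65 on the log2 scale (edgeR adjusted p = 0.0022). Under sorbitol YUC8 had 5.06 and 3.95 CPM in seu-6 against 6.3 and 8.34 CPM in Col-0, and in the 6 h mock 2.26 and 3.2 CPM in seu-6 against 11.6 and 10.1 CPM in Col-0. The 2 sorbitol libraries of seu-6 are above those of its mock, and the 2 sorbitol libraries of Col-0 are below those of its mock. PID (AT2G34650), a kinase that directs PIN auxin transporters, had a mean gap of -0.68 and PID2 (AT2G26700) one of -0.75. LAX2 (AT2G21050), an auxin influx carrier, had a mean gap of -0.72. It was the 1 gene of the 4 AUX1 and LAX genes that was lower in seu-6 in every medium, beside 20.9% of all genes. The rule made this certain for LAX2.

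The list of 24 auxin response and transport genes holds PID and YUC8 of the set, and 20 of its 24 genes were lower in seu-6 in all 4 media by group means, beside 20.9% of all genes. It also holds 2 genes that met the threshold and were left out by name, so 4 of the 20 were lower in all 4 media by the rule itself. The list's median log2 value was -0.61 under NaCl, -0.46 in the 15 min mock, -0.56 under sorbitol and -0.79 in the 6 h mock, where the median over all genes was between -0.05 and 0.02. In the mean NaCl response 12 of the 24 rose and 5 fell, beside 20.1% and 22.9% of all genes tested. Under sorbitol 9 rose and 10 fell, beside 34.5% and 34.9%. Of the 12 genes for PIF factors and shade responses 10 were lower in seu-6 in all 4 media, again beside 20.9% of all genes. YUC8 is in the set, and 1 other gene of that list met the threshold and was left out by name, so both were certain to be among the 10. These lists were taken up with earlier results of the same libraries known.

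BR6OX2 (AT3G30180), for the last enzyme of brassinolide synthesis, had 6.51 and 6.93 CPM in seu-6 against 13.2 and 14.6 CPM in Col-0 under NaCl and 3.39 and 4.13 CPM in seu-6 against 5.82 and 6.47 CPM in Col-0 in the 15 min mock. Its rise was 0.93 ± 0.11 (edgeR adjusted p = 9.0e-12) under NaCl and 0.46 ± 0.062 (edgeR adjusted p = 1.4e-09) under sorbitol. The gap of BR6OX2 was -0.59 in the 15 min mock and -1.79 in the 6 h mock, and of the 6 gibberellin and brassinosteroid genes listed it alone met the threshold. GA2OX6 (AT1G02400), for an enzyme that inactivates gibberellins, had 27.1 and 26.3 CPM in seu-6 against 69.5 and 65.5 CPM in Col-0 under NaCl and 46.3 and 44.5 CPM in seu-6 against 74.9 and 85.7 CPM in Col-0 in the 15 min mock. It fell under NaCl by 0.58 (edgeR adjusted p = 1.7e-21) and rose under sorbitol by 0.95 (edgeR adjusted p = 1.9e-19). GASA14 (AT5G14920), a gibberellin-regulated gene, went the other way. It had 138 and 132 CPM in seu-6 against 243 and 235 CPM in Col-0 under NaCl, and 94.8 and 100 CPM in seu-6 against 154 and 146 CPM in Col-0 in the 15 min mock, and the response was 0.50 ± 0.026 (edgeR adjusted p = 7.3e-30). Under sorbitol it had 55.4 and 54.9 CPM in seu-6 against 81.9 and 87 CPM in Col-0 and in the 6 h mock 137 and 141 CPM in seu-6 against 263 and 261 CPM in Col-0, and it fell by 1.38 (edgeR adjusted p = 5.2e-46). ACS8 (AT4G37770), for an enzyme of ethylene synthesis, fell by 1.23 under NaCl (edgeR adjusted p = 0.023) and by 1.13 under sorbitol (edgeR adjusted p = 2.2e-07), at levels no higher than 6.51 CPM. The NaCl call for ACS8 was lost with DESeq2 (adjusted p = 0.17), with edgeR and the replicate block (adjusted p = 0.057), and with edgeR without replicate 1 of the seu-6 mock (adjusted p = 0.088) or NaCl replicate 2 of Col-0 (adjusted p = 0.085).

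In the signalling group 6 of 15 rose and 1 fell under NaCl, and 4 rose and 5 fell under sorbitol. AT5G12050, given above for the 15 min experiment, had a NaCl response of 0.93 ± 0.089 (edgeR adjusted p = 1.7e-15), with a rise in both genotypes. By group means its log2 response to NaCl was 0.52 in seu-6 and 1.31 in Col-0. APD7 (AT5G02760), a protein phosphatase 2C of clade D, had 6.79 and 7.86 CPM in seu-6 against 25.7 and 22.8 CPM in Col-0 under NaCl and 6.72 and 7.16 CPM in seu-6 against 12.1 and 12 CPM in Col-0 in the 15 min mock. In the 6 h experiment APD7 had 15.6 and 16.3 CPM in seu-6 against 38 and 36 CPM in Col-0 under sorbitol, and 20.2 and 19.7 CPM in seu-6 against 88.5 and 84.8 CPM in Col-0 in the 6 h mock. Its gap ranged between -0.72 in the 15 min mock and -2.06 in the 6 h mock, and it rose by 0.47 under NaCl and fell by 0.67 under sorbitol, with edgeR adjusted p = 4.1e-06 and 6.8e-20.

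Of the 13 transport genes 2 rose and 5 fell under NaCl, and 4 rose and 5 fell under sorbitol. NRT2:1 (AT1G08090), the high-affinity nitrate transporter, had 0.746 and 1.02 CPM in seu-6 against 3.07 and 1.84 CPM in Col-0 under NaCl, and 1.4 and 1.52 CPM in seu-6 against 4.22 and 5.93 CPM in Col-0 in the 15 min mock. At 6 h it had 5.61 and 4.6 CPM in seu-6 against 20.8 and 22.5 CPM in Col-0 under sorbitol, and 14.5 and 14.5 CPM in seu-6 against 41.7 and 42.8 CPM in Col-0 in the 6 h mock. It fell by 0.96 under NaCl (edgeR adjusted p = 8.5e-05) and by 1.13 under sorbitol (edgeR adjusted p = 1.7e-23), and was the 1 of 5 listed nitrate genes in the set. NPF6.2 (AT2G26690), which encodes a member of the nitrate and peptide transporter family, had 129.9 and 128 CPM in seu-6 against 202 and 202 CPM in Col-0 under sorbitol and 27.5 and 28.8 CPM in seu-6 against 57.5 and 52.9 CPM in Col-0 in the 6 h mock. All 4 sorbitol libraries are above all 4 mock libraries, with a response of 2.14 ± 0.033 (edgeR adjusted p = 1.5e-53). Its relative NPF1.2 (AT1G52190) fell instead, with 29.7 and 31.7 CPM in seu-6 against 51.3 and 51.4 CPM in Col-0 under sorbitol and 52.1 and 46 CPM in seu-6 against 97.1 and 100.2 CPM in Col-0 in the 6 h mock, by 0.70 (edgeR adjusted p = 3.8e-24). SULTR3;1 (AT3G51895), a sulfate transporter, had 21.9 and 20.3 CPM in seu-6 against 50.5 and 53.6 CPM in Col-0 under sorbitol and 3.66 and 4.67 CPM in seu-6 against 10.4 and 10.7 CPM in Col-0 in the 6 h mock, a rise of 2.43 ± 0.067 (edgeR adjusted p = 4.3e-40). CLC-B (AT3G27170), of the chloride channel family, fell by 0.52 under NaCl (edgeR adjusted p = 8.9e-07) and by 0.65 under sorbitol (edgeR adjusted p = 6.3e-15). ProT3 (AT2G36590), a proline transporter, had the highest NaCl response of the set, 1.22 ± 0.30 (edgeR adjusted p = 5.1e-04), at levels of at most 4.26 CPM.

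Of the 23 cell wall and extracellular genes 13 rose and 8 fell under sorbitol, beside 34.5% and 34.9% of all genes tested. Under NaCl 3 rose and 6 fell, beside 20.1% and 22.9%. The glycine-rich protein gene AT1G55990 had 6.49 and 5.4 CPM in seu-6 against 11.2 and 11.4 CPM in Col-0 under NaCl, and 15.3 and 16.2 CPM in seu-6 against 28.9 and 25.2 CPM in Col-0 in the 15 min mock. Its values at 6 h were 17.5 and 15.7 CPM in seu-6 against 26 and 28.1 CPM in Col-0 under sorbitol, and 2.34 and 2.93 CPM in seu-6 against 4.96 and 4.47 CPM in Col-0 in the 6 h mock. Both genotypes are lower under NaCl and higher under sorbitol than in the mocks, with responses of -1.41 ± 0.081 (edgeR adjusted p = 1.0e-27) and 2.70 ± 0.088 (edgeR adjusted p = 3.5e-36). The subtilase gene AT5G59130 did the same, with -0.79 ± 0.093 (edgeR adjusted p = 8.9e-12) under NaCl and 3.06 ± 0.13 (edgeR adjusted p = 4.6e-22) under sorbitol. ENODL2 (AT4G27520), an early nodulin-like protein gene with the most counts of the 105, had 288 and 293 CPM in seu-6 against 548 and 539.9 CPM in Col-0 under sorbitol and 118 and 123 CPM in seu-6 against 207 and 196 CPM in Col-0 in the 6 h mock. Its response was -0.38 ± 0.023 (edgeR adjusted p = 5.4e-26) under NaCl and 1.46 ± 0.025 (edgeR adjusted p = 3.2e-51) under sorbitol. CWINV5 (AT3G13784), annotated as a cell wall invertase, had 1.33 and 0.843 CPM in seu-6 against 18.2 and 20.8 CPM in Col-0 under sorbitol and 0.299 and 0.221 CPM in seu-6 against 1.8 and 1.38 CPM in Col-0 in the 6 h mock. It was the 1 gene of the set with a library without counts, in the 15 min mock of seu-6, and 80.6% of its CPM summed over the 16 libraries lay in the 2 sorbitol libraries of Col-0.

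Other extracellular genes fell under sorbitol. PRB1 (AT2G14580), for a basic pathogenesis-related protein, had 1.38 and 1.76 CPM in seu-6 against 5.86 and 5.94 CPM in Col-0 under sorbitol and 5.1 and 4.7 CPM in seu-6 against 16.1 and 16.5 CPM in Col-0 in the 6 h mock, and fell by 1.44 (edgeR adjusted p = 4.6e-18). The lipid transfer-type protein gene AT4G22490 had 23.2 and 20.9 CPM in seu-6 against 49.9 and 52.5 CPM in Col-0 under sorbitol and 74.3 and 67.1 CPM in seu-6 against 134 and 142 CPM in Col-0 in the 6 h mock, and fell by 1.45 (edgeR adjusted p = 1.2e-38). GER3 (AT5G20630), for a germin, had 59 and 61.6 CPM in seu-6 against 97.1 and 101 CPM in Col-0 under sorbitol, and 75.3 and 71.6 CPM in seu-6 against 191 and 186 CPM in Col-0 in the 6 h mock. Both genotypes are lower under sorbitol, and the gap was -0.71 there and -1.34 in the 6 h mock. AT3G05727, for a small pollen coat-type protein, and GH9B13, a glycosyl hydrolase family 9 gene, had -0.05 and -0.16 under sorbitol, the first not called (edgeR adjusted p = 0.19) and the other lower (edgeR adjusted p = 0.0020).

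Among the 14 metabolic enzyme genes 10 rose and 2 fell under sorbitol, and 1 rose and 3 fell under NaCl. MIPS1 (AT4G39800), for the enzyme that makes the inositol backbone, had 30.1 and 31.6 CPM in seu-6 against 73.2 and 73.7 CPM in Col-0 under NaCl, and 41.9 and 40.3 CPM in seu-6 against 84 and 89.2 CPM in Col-0 in the 15 min mock. The 6 h experiment gave 84.9 and 77.3 CPM in seu-6 against 205 and 200.4 CPM in Col-0 under sorbitol, and 49.1 and 50 CPM in seu-6 against 112 and 108 CPM in Col-0 in the 6 h mock. It fell by 0.40 under NaCl (edgeR adjusted p = 1.1e-14) and rose by 0.91 under sorbitol (edgeR adjusted p = 1.6e-34). The alpha/beta hydrolase gene AT1G73480 had 179.7 and 182 CPM in seu-6 against 335 and 335 CPM in Col-0 under sorbitol and 27.3 and 28.4 CPM in seu-6 against 44.3 and 42.3 CPM in Col-0 in the 6 h mock. Its rise was 2.93 ± 0.030 (edgeR adjusted p = 3.8e-63), in both genotypes, with a gap of -0.89 under sorbitol and -0.62 in the 6 h mock. GSTU14 (AT1G27140), for a glutathione transferase, fell by 1.04 (edgeR adjusted p = 1.5e-06). Of the 14 genes with another or no annotated function 9 rose and 2 fell under sorbitol. AT1G80130 had 28.9 and 29.1 CPM in seu-6 against 94.7 and 97.5 CPM in Col-0 under sorbitol and 4.75 and 4.65 CPM in seu-6 against 15.8 and 19 CPM in Col-0 in the 6 h mock, a rise of 2.65 ± 0.055 (edgeR adjusted p = 1.9e-46), and AT5G62280 fell by 0.60 (edgeR adjusted p = 1.3e-14).

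The 16 pathway lists examined hold 4 of the 105 genes among 215 listed, where the whole set is 105 of 32833 genes counted, or of 21201 passing the filter. These are PID and YUC8 of the auxin list, NRT2:1 and BR6OX2, with YUC8 also on the shade list. None is on the lists for abscisic acid and dehydration effectors, CBF, DREB and ERF factors, jasmonate, salicylate and immunity, phosphate starvation, iron deficiency, flavonoids, glucosinolates, xyloglucan enzymes and expansins, aquaporins, seed storage or SEU co-regulators. Each list holds only some genes of its class, so this does not show that the set lacks the class. The expansin-like gene EXLB1 and the pathogenesis-related protein gene PRB1, for example, are in the set and on no list. The glucosinolate list holds 2 genes that met the threshold and were left out by name, and the list of SEU co-regulators holds SEU. All 14 dehydration effectors rose under sorbitol in the mean response with a median of 3.58, beside 34.5% of all genes tested. Of these 14 genes 6 were lower in seu-6 in all 4 media without reaching the threshold in each, beside the same 20.9%. Of the salicylate and immunity genes 10 of 12 were higher in seu-6 in all 4 media, beside 14.7% of all genes.

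For 13 of the 105 genes both libraries of seu-6 moved one way under a treatment and both libraries of Col-0 the other way, 6 under NaCl and 7 under sorbitol. How many of all genes did so was not counted, so the 13 are not shown to be more than in other genes. For GRF9 under sorbitol the call rests on a tie, since replicate 2 of seu-6 had 1.08 CPM both under sorbitol and in its mock. The differences between the genotypes' responses come from the contrasts that chose the genes and were not tested. The bHLH gene AT4G29930 had 5.99 and 6.13 CPM in seu-6 against 24.1 and 26.2 CPM in Col-0 under NaCl and 11.3 and 10.1 CPM in seu-6 against 22 and 20.8 CPM in Col-0 in the 15 min mock. The seu-6 libraries are lower and the Col-0 libraries higher under NaCl, with log2 responses of -0.73 in seu-6 and 0.22 in Col-0 by group means. IQD22 (AT4G23060), of the IQ-domain calmodulin-binding family, had 6.94 and 8.15 CPM in seu-6 against 31.2 and 28.5 CPM in Col-0 under NaCl and 8.59 and 8.55 CPM in seu-6 against 23.3 and 21.3 CPM in Col-0 in the 15 min mock. Its seu-6 libraries are slightly lower and its Col-0 libraries higher under NaCl. ATL5 (AT3G62690), for a RING protein of the ATL family, had 4.18 and 2.82 CPM in seu-6 against 5.6 and 6.2 CPM in Col-0 under sorbitol and 2.79 and 2.56 CPM in seu-6 against 8.74 and 8.77 CPM in Col-0 in the 6 h mock. The genotypes come closer under sorbitol in ATL5, where the gap was -0.62, against -1.41 in the 6 h mock. AT5G22580, for a stress-responsive A/B barrel protein, had 22.2 and 23.4 CPM in seu-6 against 50.4 and 53.6 CPM in Col-0 under sorbitol and 13.5 and 13.3 CPM in seu-6 against 53.8 and 55.9 CPM in Col-0 in the 6 h mock.

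**Figure D5:**
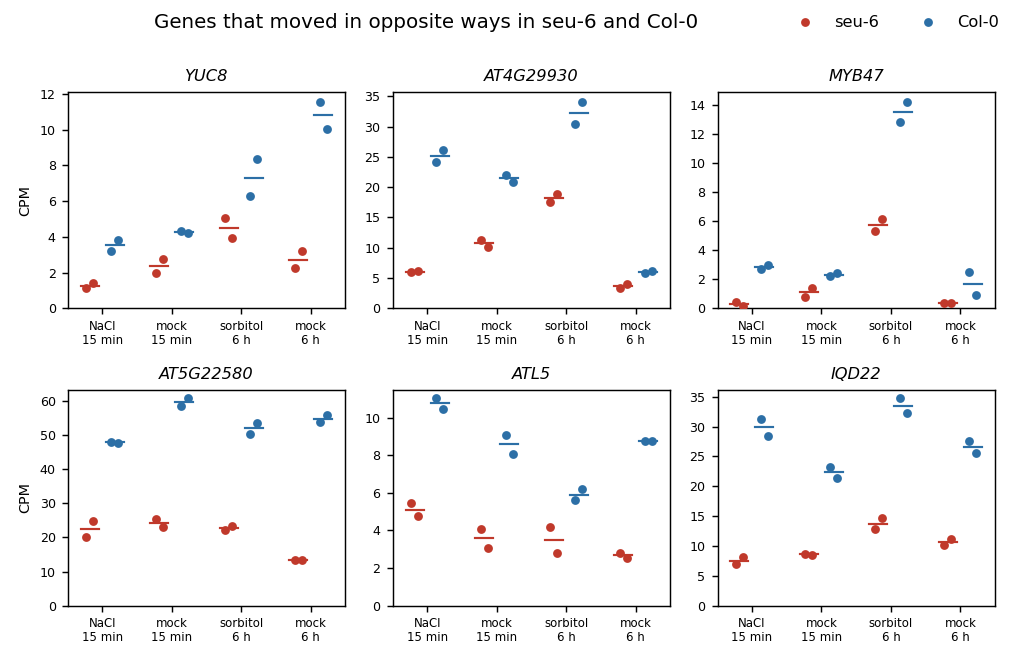
CPM on the vertical axis in each of the 16 libraries for the 6 genes with the largest difference between the genotypes among those whose libraries moved in opposite ways, with seu-6 in red left of Col-0 in blue. In YUC8 the sorbitol libraries of seu-6 lie above those of its mock and the sorbitol libraries of Col-0 below those of its mock, and in AT4G29930 the NaCl libraries of seu-6 lie below and those of Col-0 above their mock.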

How the data were processed

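Poly(A) RNA of whole seedlings was sequenced in 16 libraries, 2 for each of 8 groups, assigned from the labels. The deposited values are raw counts per gene. Per the submitters' processing notes, HISAT2 2.2.1, HTSeq 0.13.5, DESeq2 and the TAIR10 genome were used. Neither the strand setting nor the annotation release is given in the sources used here. The 5 summary lines of each table, 8.78% to 12.7% of reads, entered neither library sizes nor tests. Reads that align to several places stand in one of these lines, so counts of near-identical genes may be too low.

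CPM, group means, SDs and genotype ratios were computed from these counts. The mean NaCl and sorbitol responses were fitted on the 8 libraries of each experiment and the mock difference on all 16, by quasi-likelihood F tests in edgeR 4.0.16 (R 4.3.3, robust option, TMM scaling, filterByExpr) and Benjamini-Hochberg adjustment over all genes, and checked on simulated counts. Symbols, positions and promoter windows came from RefSeq's TAIR10.1 annotation, which holds 32548 of the 32833 loci. The members, lists, roles and families were chosen with earlier results of these data known. Genes named are the 12 lowest mean gaps and the 6 largest rises and falls per treatment among genes of at least 4 CPM, the 10 with most counts, list members, genes beside the threshold, the 4 widest ranges and neighbours. Others were named after their values were seen. The settings varied were the tool (DESeq2 1.42.0), the scaling (size factors of DESeq2), the filter (none), a replicate block, all 16 libraries in 1 fit, other pseudocounts, scaling and thresholds, and each library left out. P-values measure the spread between 2 libraries per group.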

Additional observations from a re-analysis of the deposited data

Results flagged for a closer look

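In 13 of the 105 genes the libraries of seu-6 and of Col-0 moved in opposite ways under a treatment. The share of all genes that did so was not computed, and with 2 libraries per group such moves can arise from spread alone. The values are the log2 response of seu-6 minus that of Col-0, from group means with 1 CPM added, and these differences were not tested.

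Under NaCl the value was -0.57 for IQD22, 0.38 for GER3, -0.88 for MYB47, -0.95 for AT4G29930, -0.28 for AT4G34220, for a leucine-rich repeat kinase, and -0.40 for NPF6.2. In 5 of these 6 genes the seu-6 libraries were lower and the Col-0 libraries higher under NaCl, and in GER3 the seu-6 libraries were higher and the Col-0 libraries lower.

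Under sorbitol the value was -0.26 for CDEF1, 0.80 for AT5G22580, 0.41 for GRF9, 0.33 for HAT3, 0.79 for ATL5, 1.07 for YUC8 and 0.40 for ABCG5, of an ABC transporter family. In AT5G22580, HAT3, ATL5, YUC8 and ABCG5 the seu-6 libraries were higher and the Col-0 libraries lower under sorbitol, and in CDEF1 the reverse was seen. The nearest seu-6 libraries of HAT3 had 5.71 CPM under sorbitol and 5.65 CPM in the mock, and those of ATL5 2.82 CPM under sorbitol and 2.79 CPM in the mock. In GRF9 the Col-0 libraries were lower, while replicate 2 of seu-6 had 1.08 CPM both under sorbitol and in its mock, a difference of less than 1 count, so the opposite move of seu-6 rests on a tie.

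GRF9 and MYB47 had under 3 CPM in all mock libraries of one or both genotypes, and the seu-6 mock libraries of the 6 h experiment, which enter all 7 sorbitol values, are those with 189 CPM of seed storage transcripts.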

How the results depend on the processing

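The number of genes meeting the rule depended on the pseudocount and the threshold. It was 105 as given, 148 with 0.5 CPM added, 37 with 5 CPM added, which draws low levels together by construction, 87 on TMM effective library sizes, 20 at a threshold of -1 and 165 without the 6 h mock, an alternative chosen after seeing the data. Leaving out 1 library gave 96 to 109 genes, of which 93 to 103 were among the 105. Of the 105 genes 25 were called higher and 25 lower under NaCl, with 19 to 27 and 20 to 25 when 1 library was left out. Under sorbitol 53 and 28 were called, with 51 to 55 and 26 to 28, and between mocks 45 and 41, with 40 to 45 and 40 to 47. Under all 13 alternatives 14 of 25 rises and 18 of 25 falls were called under NaCl, and 51 of 53 rises and 23 of 28 falls under sorbitol. No called NaCl or sorbitol response of the 105 genes changed sign under these alternatives. With the replicate number as a block 26 genes were called higher and 24 lower under NaCl, 53 and 28 under sorbitol, and 42 and 39 between mocks. The numbers do not pair the samples, since correlations of the replicate difference between groups of an experiment lay between -0.059 and 0.062. With 2 libraries per group, genes of a few CPM have wide errors.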
